A study of Caenorhabditis elegans with 6 samples.

Results

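Germ granule and oocyte genes were followed here as a set of 10 named genes of Caenorhabditis elegans, and their members are all acetylated regions (peaks) that carry one of these gene symbols in the deposited tables. The set holds 3 germ granule genes (glh-1, glh-2 and pgl-1) and 7 oocyte genes (gld-1, mex-5, puf-5, oma-1, oma-2, cpg-1 and cpg-2). By symbol it comprised 11 of 17207 nuclear peaks for acetylated lysine 18 of histone H3 (H3K18ac), at 7 of the genes, and 11 of 17763 nuclear peaks for acetylated lysine 27 (H3K27ac), at 8 of the genes. Under their own symbols pgl-1 lacked a peak for both marks, oma-1 and oma-2 lacked one for H3K18ac, and glh-2 lacked one for H3K27ac.

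The study asked, by chromatin immunoprecipitation and sequencing, where these marks change in worms under mitochondrial stress. All worms were of strain N2 with a wild-type genotype per the sample labels, and the series design adds a green fluorescent reporter of hsp-6 that the labels do not list. They were kept at 20 °C on Escherichia coli HT115 from the egg until the last larval or young adult stage, and fixed with 1% formaldehyde for 30 min. Controls ate bacteria with the empty RNAi vector, and stressed worms ate a mixture of 50% control bacteria and 50% bacteria targeting cco-1, a subunit of cytochrome c oxidase. There were 6 libraries in 6 groups, with 1 library per group: each mark in each condition, and an input per condition, which was not analysed here. No p-value can be given, and every 95% interval covers counting error only. Counts in nuclear peaks came to 8293828 (empty vector) and 8948860 (cco-1 RNAi) with H3K18ac, and to 11556404 and 11593321 with H3K27ac. Levels are given as counts per 1000000 counts in nuclear peaks (CPM), and the change as the CPM with cco-1 RNAi divided by that in empty vector, as a fold or on the log2 scale. "Rose" and "fell" are used only for a change of at least 1.5-fold. The peak over the RNAi target cco-1 rose 8.32-fold for H3K18ac and 3.15-fold for H3K27ac, a signal on DNA that does not measure the knockdown. The sources describe harvested worms with no dissection or sort, so fewer germ cells and less acetylation per germ cell cannot be told apart.

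Germ granules are droplets of RNA and protein on the outer face of germ cell nuclei, where transcripts are collected and small RNA pathways act. In the hermaphrodite gonad, germ cells pass through meiosis into oocytes, which are loaded with maternal messenger RNAs kept silent by RNA-binding proteins until they are needed, and with the proteins that build the eggshell after fertilisation. Acetyltransferases related to mammalian CBP and p300 place both marks, which are commonly found at active promoters and enhancers.

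H3K27ac was lower at most of these genes with cco-1 RNAi, while H3K18ac mostly changed less. Summed over the gene, H3K18ac was below 1 beyond counting error at glh-1 (fold 0.835), glh-2 (0.788), pgl-1 (0.688) and cpg-2 (0.780). By symbol, 6 of 11 H3K27ac peaks fell (54.5%) and 0 rose, beside 23.1% of all nuclear H3K27ac peaks that fell and 8.73% that rose. The 6 peaks lay at mex-5, puf-5, oma-1, oma-2, cpg-1 and, as a weak upstream peak, glh-1. For H3K18ac 1 of 11 peaks fell, at glh-2, and 1 rose, at cpg-1, beside 13.2% of all H3K18ac peaks that fell and 9.16% that rose, so these counts are near the background. The median log2 ratio was -0.62 for the H3K27ac peaks against -0.19 over all H3K27ac peaks, and -0.14 for the H3K18ac peaks against -0.03 over all H3K18ac peaks. In the H3K27ac table the weakest 10% of peaks had a median log2 ratio of -0.65 and the strongest 10% had 0.12. Relative to the median of all H3K27ac peaks, 5 of these peaks were lower by at least 1.5-fold, all of the 6 except oma-1, and 1 peak assigned to cpg-1 was higher, beside 14.4% lower and 14.8% higher among all H3K27ac peaks set the same way. The H3K18ac fall at glh-2 was short of 1.5-fold on that scale. Relative to the median of H3K27ac peaks of like strength, in 10 classes, 6 were lower, with cpg-2 and gld-1 in place of oma-1 and the upstream glh-1 peak, and the cpg-1 peak was higher, beside 10.6% lower and 12.4% higher among all.

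**Figure D1:**
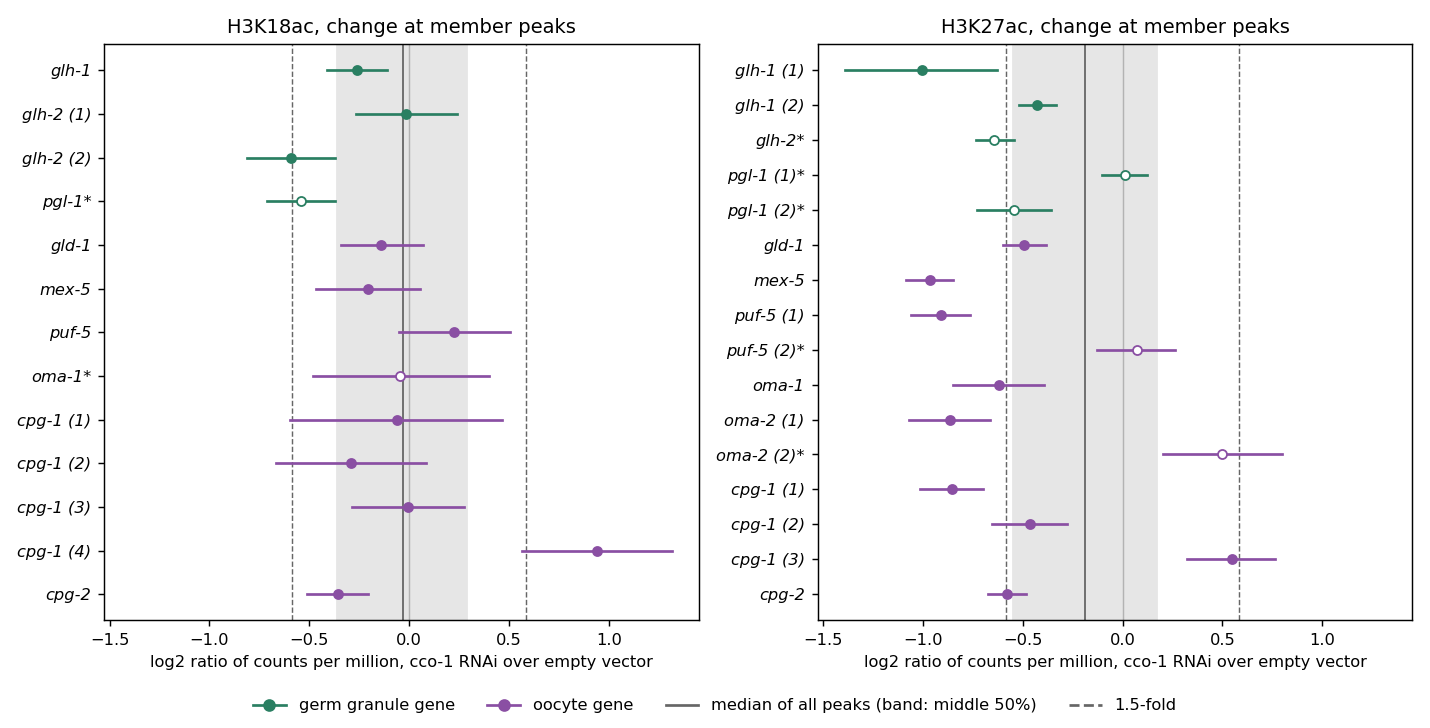
Log2 ratio of CPM (cco-1 RNAi divided by empty vector) at each peak of the 10 genes, H3K18ac left and H3K27ac right; points are single libraries' ratios, bars exact 95% intervals for counting error, open points with an asterisk are peaks that overlap the gene or the 1 kb before its start but carry a neighbour's symbol, and numbers count a gene's peaks from its start. The filled H3K27ac points lie left of 0 except the third cpg-1 peak (0.54), whereas the filled H3K18ac points scatter from -0.59 to 0.94.

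Among the 5 RNA-binding regulators of the set, mex-5 had the deepest H3K27ac fall, though its fold interval overlaps those of puf-5 and oma-2. The product of mex-5 is a zinc-finger protein that is supplied to the embryo by the mother. The protein acts in the sorting of germ granules along the embryo's front-to-back axis. The gene lies on chromosome IV at 13353723 to 13356104 (build ce11), and its H3K27ac peak (13353548 to 13354925) covers the start. This peak held 1706 counts or 148 CPM (95% interval 141 to 155) in empty vector and 876 counts or 75.6 CPM (70.6 to 80.7) with cco-1 RNAi, a fold of 0.512 (0.471 to 0.556). The intervals of both conditions are far apart. The narrower H3K18ac peak over the same start (13353579 to 13354287) had 30.1 CPM (250 counts) and 26.1 CPM (234 counts), a fold of 0.867 (0.723 to 1.04), and here the interval includes no change.

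At puf-5 the marks differed most. PUF-5 is a Pumilio-type RNA-binding protein that represses translation in growing oocytes. Just inside the gene start on chromosome II, the H3K27ac peak (8575593 to 8576503) fell from 94.4 CPM (1091 counts) to 50.2 CPM (582 counts), a fold of 0.532 (0.480 to 0.589). The H3K18ac peak at the same place (8575581 to 8576180) had 23.6 CPM (196 counts) in empty vector and 27.6 CPM (247 counts) with cco-1 RNAi, a fold of 1.17 (0.964 to 1.42). It was the only H3K18ac peak lying on one of these genes with a fold above 1. A further H3K27ac peak spanning the far end of puf-5 and the start of the next gene, F54C9.9, to which it was assigned, had a fold of 1.05 (0.915 to 1.20).

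OMA-1 and OMA-2 are closely related zinc-finger proteins that act redundantly in oocyte maturation and repress maternal messages. H3K27ac fell at both genes, inside the transcribed region. At oma-1 (chromosome IV, 8888976 to 8890999) the peak at 8889831 to 8890488 had 35.2 CPM (407 counts) in empty vector and 22.9 CPM (266 counts) with cco-1 RNAi, a fold of 0.651 (0.556 to 0.762). At oma-2 (chromosome V, 8029439 to 8031214) the peak at 8029747 to 8031024 had 48.4 CPM (559 counts) and 26.6 CPM (308 counts), a fold of 0.549 (0.476 to 0.632). Both intervals lie wholly below 1, and they overlap each other. For H3K18ac, oma-1 carried only a weak internal peak that the table assigns to spr-2 (8890081 to 8890396), with 87 and 91 counts and a fold of 0.969 (0.715 to 1.32). For oma-2 the table held no H3K18ac peak on the gene, and the nearest one lay 7249 bp away. A weak H3K27ac peak at the start of the neighbour vars-1, a valyl-tRNA synthetase gene, reaches 15 bp into the end of oma-2 and had a fold of 1.41 (1.15 to 1.74).

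GLD-1, a KH-domain protein that silences many maternal messages in the meiotic part of the gonad, is encoded on chromosome I at 7695681 to 7698222. Its H3K27ac peak (7695065 to 7697023) spans the start and reaches into the neighbouring gene T23G11.4. It held 147 CPM (1697 counts) in empty vector and 104 CPM (1210 counts) with cco-1 RNAi, a fold of 0.711 (0.660 to 0.766), which is below 1 beyond counting error but short of 1.5-fold. The H3K18ac peak (7695092 to 7695947) had 48.0 CPM (398 counts) and 43.6 CPM (390 counts), a fold of 0.908 (0.788 to 1.05).

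The eggshell genes cpg-1 and cpg-2 encode chondroitin proteoglycans that are secreted by the oocyte and become part of the eggshell. Both lie on chromosome III and are covered by acetylated regions along most of their length. At cpg-1 (4489359 to 4491392) the H3K27ac peak over the start (4489237 to 4490282) fell from 80.4 CPM (929 counts) to 44.4 CPM (515 counts), a fold of 0.553 (0.495 to 0.616). The H3K27ac peak in the rear of the gene (4490513 to 4491327) had 47.6 CPM and 34.5 CPM, a fold of 0.725 (0.636 to 0.826), so the change was larger at the start and the intervals do not overlap. The 3 H3K18ac peaks on cpg-1 had folds of 0.957 (0.662 to 1.38), 0.818 (0.630 to 1.06) and 0.995 (0.819 to 1.21) from start to end. These are small peaks of 61 to 220 counts per library.

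A further peak carrying the cpg-1 symbol went the other way in both marks, but it does not lie on cpg-1. It is 3489 bp (H3K18ac) from the cpg-1 start, inside the next gene, atf-7, which encodes a transcription factor of the ATF/CREB family. H3K18ac rose there from 10.9 CPM (90 counts) to 20.8 CPM (186 counts), a fold of 1.92 (1.48 to 2.49). H3K27ac there had 24.1 CPM (278 counts) and 35.0 CPM (406 counts), a fold of 1.46 (1.25 to 1.70). It was the only peak with a fold above 1 among the 11 H3K27ac peaks counted by symbol. The other 10 all had a fold below 1, beside 64% of all nuclear H3K27ac peaks.

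At cpg-2 (7102090 to 7103990, minus strand) 1 peak per mark covered the whole gene. H3K27ac (7102062 to 7104143) had 186 CPM (2149 counts) in empty vector and 125 CPM (1444 counts) with cco-1 RNAi, a fold of 0.670 (0.626 to 0.716), just short of the 1.5-fold limit. H3K18ac (7102050 to 7104073) had 91.6 CPM (760 counts) and 71.5 CPM (640 counts), a fold of 0.780 (0.701 to 0.868). At cpg-2, as at glh-1, both marks were lower beyond counting error.

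The germ granule genes encode PGL-1, a scaffold protein of the granules, and GLH-1 and GLH-2, Vasa-type DEAD-box RNA helicases. GLH-1 is encoded on chromosome I at 6854478 to 6857536, and its main H3K27ac peak (6854786 to 6856019) had 196 CPM (2261 counts) in empty vector and 146 CPM (1688 counts) with cco-1 RNAi, a fold of 0.744 (0.698 to 0.793). The H3K18ac peak there (6854854 to 6855947) had 92.4 CPM (766 counts) and 77.1 CPM (690 counts), a fold of 0.835 (0.752 to 0.927). Both are below 1 beyond counting error and within 1.5-fold. The glh-1 peak that fell for H3K27ac is a small one upstream (6853832 to 6854124), with 176 and 88 counts and a fold of 0.498 (0.381 to 0.647), and it overlaps the adjacent gene sacy-1, which encodes a further DEAD-box helicase.

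At glh-2 (chromosome I, 6513928 to 6517507) H3K27ac also fell, although no peak carries its symbol. A broad H3K27ac peak (6513787 to 6515878) lies on the gene for 1951 of its 2092 bp but is assigned to C55B7.11, the gene just upstream. It went from 202 CPM (2334 counts) to 130 CPM (1502 counts), a fold of 0.641 (0.601 to 0.685). Relative to the median of all H3K27ac peaks its log2 ratio was -0.45, short of 1.5-fold. H3K18ac was split into a pair of peaks over the same stretch, which behaved differently. The one at the start (6513981 to 6514693) had 248 and 265 counts and a fold of 0.990 (0.830 to 1.18), while the inner one (6514932 to 6515815) fell from 48.5 CPM (402 counts) to 32.2 CPM (288 counts), a fold of 0.664 (0.569 to 0.774), barely past the 1.5-fold limit.

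At pgl-1 (chromosome IV, 6974442 to 6977318) the marks had the reverse order. A peak of each mark covers the low-coordinate end of the gene, and both are assigned in the tables to the pseudogene ZK381.63. H3K27ac there (6974434 to 6975127) had 102 CPM (1177 counts) in empty vector and 103 CPM (1191 counts) with cco-1 RNAi, a fold of 1.01 (0.930 to 1.09). H3K18ac (6974436 to 6975000) had 80.1 CPM (664 counts) and 55.1 CPM (493 counts), a fold of 0.688 (0.611 to 0.774). A second H3K27ac peak, at the other end of pgl-1 and over the start of the meiotic chromosome axis gene him-3, had a fold of 0.686 (0.603 to 0.780).

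**Figure D2:**
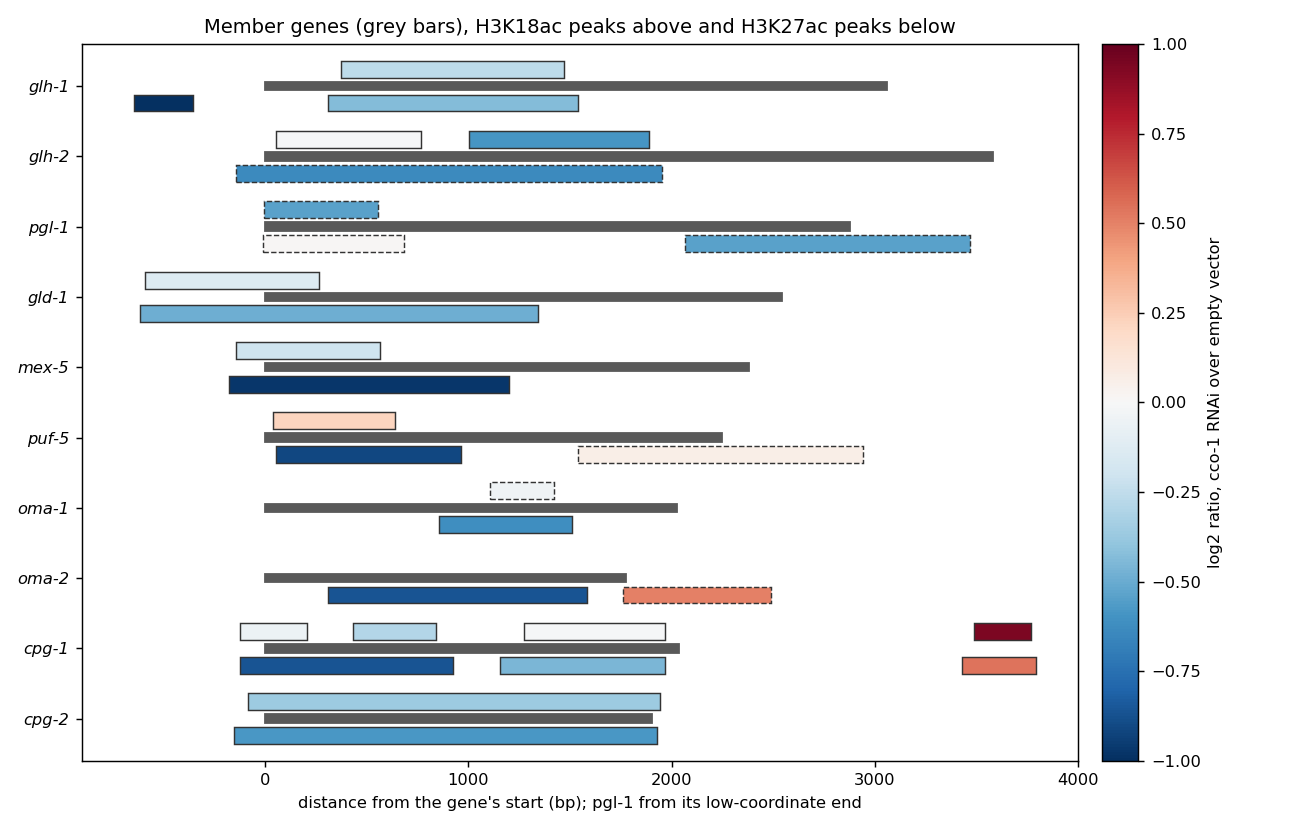
Peaks drawn to scale along the 10 genes (grey bars, distance in bp from each gene's start, for pgl-1 from its low-coordinate end), H3K18ac above and H3K27ac below each bar; colour is the log2 ratio between conditions (blue lower and red higher with cco-1 RNAi), and dashed outlines are peaks that carry a neighbour's symbol. Blue H3K27ac peaks sit over the fronts and bodies of 9 genes, pgl-1 has a near-white one (0.01) at its low-coordinate end, and the strongest red blocks lie at the far end of oma-2 (0.50) and beyond cpg-1 (0.94 and 0.54).

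Because symbols missed several peaks, the genes were also compared by position, with all peaks that overlap a gene or the 1 kb before its start (for pgl-1, the gene alone). By position every gene had an H3K27ac peak and 9 of 10 had an H3K18ac peak. Of 15 H3K27ac peaks 7 fell (46.7%, beside 23.1% of all) and 0 rose, with a median log2 ratio of -0.58. Of 12 H3K18ac peaks 1 fell (8.33%, below the 13.2% of all) and 0 rose, with a median of -0.17. Relative to the median of all peaks of the mark, 5 of the 15 H3K27ac peaks were lower and 1, at the end of oma-2, was higher. Among all H3K27ac peaks 14.4% were lower and 14.8% higher on that scale. Set the same way, 0 of the 12 H3K18ac peaks were past 1.5-fold. With counts summed over all peaks that overlap the gene, H3K27ac had a fold below 1 at 10 of 10 genes, from a log2 ratio of -0.97 at mex-5 to -0.15 at pgl-1, and 4 genes fell: mex-5 (0.512), cpg-1 (0.617), glh-2 (0.641) and oma-1 (0.651). Over all genes, taking the stronger peak of each, 21.9% fell. Of all nuclear H3K27ac peaks, 64% had a fold below 1. Relative to the median of all H3K27ac peaks, 1 of the 10 genes, mex-5, was lower by at least 1.5-fold. The share among all single H3K27ac peaks was 14.4%, so this count is near the background. Summed H3K18ac had a fold below 1 at 8 of 9 genes, from a log2 ratio of -0.54 at pgl-1 to 0.22 at puf-5, and 0 fell. Of all nuclear H3K18ac peaks, 52.1% had a fold below 1.

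Germ granule and oocyte genes did not separate clearly in either mark, and with 3 and 7 genes and 1 library per group their difference was not tested. Summed over the gene, the median log2 ratio of H3K27ac was -0.43 for the 3 germ granule genes and -0.58 for the 7 oocyte genes. For H3K18ac the order was the opposite, with -0.34 for the 3 germ granule genes and -0.12 for the 6 oocyte genes that had a peak. The H3K18ac median of the oocyte peaks by symbol, -0.10, was 0.01 without scaling to the library totals. By symbol the H3K27ac order changes, to -0.72 for germ granule and -0.62 for oocyte genes, but that germ granule value rests on only 2 peaks, both assigned to glh-1. In unstressed worms the germ granule peaks had the higher median density, but the ranges of single peaks overlapped. For H3K27ac these ran from 36.4 to 159 CPM per kb at germ granule genes and from 19 to 107 at oocyte genes. Per kb of peak, the median H3K27ac level by position in empty vector was 96.5 CPM for 5 germ granule peaks and 66.7 CPM for 10 oocyte peaks, beside a median of 57.5 CPM per kb over all H3K27ac peaks. For H3K18ac these medians were 69.6 CPM per kb for 4 germ granule peaks, 38.6 for 8 oocyte peaks and 59.2 over all H3K18ac peaks.

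**Figure D3:**
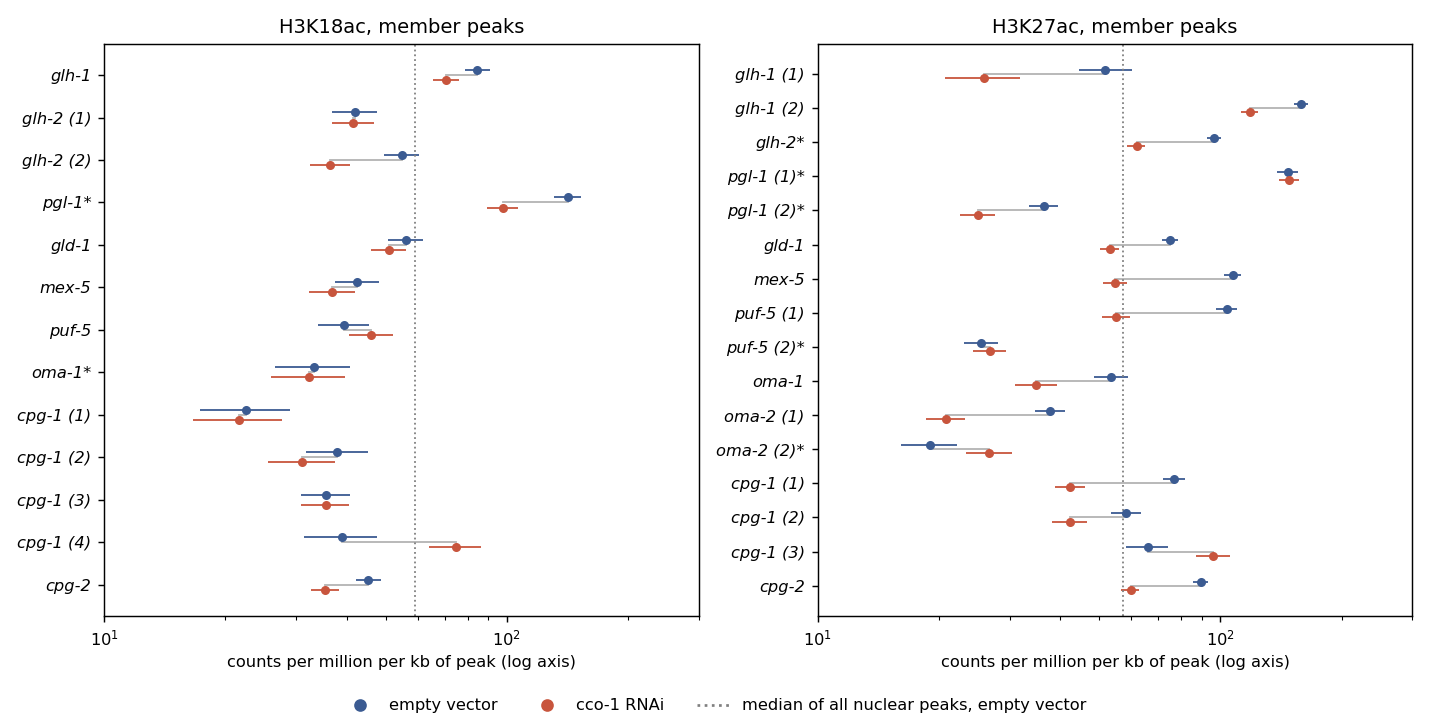
Level of each peak in CPM per kb of peak (log axis) in empty vector (blue) and cco-1 RNAi (red), H3K18ac left and H3K27ac right, each point 1 library with an exact Poisson 95% interval for counting error; dotted lines mark the medians over all nuclear peaks in empty vector (59.2 and 57.5), and asterisks mark peaks with a neighbour's symbol. In empty vector mex-5 (107), puf-5 (104), cpg-2 (89.3) and the first cpg-1 peak (76.9) stand above the H3K27ac median, while their H3K18ac peaks lie below the H3K18ac median.

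In empty vector the H3K27ac level per kb ran from 159 CPM at glh-1, 147 at pgl-1, 107 at mex-5, 104 at puf-5, 96.5 at glh-2, 89.3 at cpg-2, 76.9 at cpg-1 and 75 at gld-1 to 53.5 at oma-1 and 37.8 at oma-2, taking the densest peak on each gene. Neighbours in this order such as mex-5 and puf-5, or cpg-1 and gld-1, have overlapping counting intervals. With cco-1 RNAi the levels at mex-5 and puf-5 were 54.8 and 55.1 CPM per kb, and pgl-1, at 148, was the densest. By rank among all H3K27ac peaks, 13 of the 15 peaks stood lower with cco-1 RNAi than in empty vector, with the median percentile going from 64.1 to 45.3. For H3K18ac 9 of 12 stood lower, from a median percentile of 36 to 30.4. The H3K27ac peaks on these genes were also broad, with a median width of 1234 bp against 489 bp over all H3K27ac peaks, while the H3K18ac peaks had a median of 701 bp against 520 bp.

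Set side by side at the same places, the H3K27ac fold was mostly below the H3K18ac fold. There were 13 overlapping pairs of an H3K18ac and an H3K27ac peak at 9 genes, some of which share an H3K27ac peak. They include the pair in atf-7 that carries the cpg-1 symbol and does not lie on cpg-1. In 12 of 13 pairs the H3K27ac fold was lower than the H3K18ac fold. The ratio of the folds, H3K27ac over H3K18ac, had an exact conditional 95% interval wholly below 1 in 9 pairs, an interval including 1 in 3 and one wholly above 1 in 1. The lowest ratio was 0.455 (0.366 to 0.566) at puf-5, followed by 0.578 (0.393 to 0.849) at the start of cpg-1 and 0.590 (0.483 to 0.722) at mex-5. The inner peak of glh-2 had 0.966 (0.817 to 1.14) and glh-1 had 0.891 (0.789 to 1.01), so there the folds of the marks were not told apart by counting error. The highest was 1.47 (1.27 to 1.69) at pgl-1. The median of all peaks is itself lower for H3K27ac (fold 0.875) than for H3K18ac (0.982), and the counting intervals hold no variation between worm cultures. The ratios were set against 1 and not against these medians. At gld-1, oma-1 and cpg-2 the intervals end close to 1, at 0.92, 0.95 and 0.974. So do those of the cpg-1 pairs with H3K18ac peaks starting at 4489792 and 4490632, at 0.898 and 0.923. The share over all overlapping pairs of the 2 marks was not computed.

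Peaks close by had folds on both sides of 1. Of 9 H3K27ac peaks within 5 kb of a member gene that neither overlap it nor carry its symbol, 2 rose and 0 fell. Their median log2 ratio was 0.01, and among all H3K27ac peaks 8.73% rose and 23.1% fell. Of 8 H3K18ac peaks chosen the same way 1 rose and 0 fell, with a median of 0.18. Among all H3K18ac peaks 9.16% rose and 13.2% fell. The distance was chosen after the values had been seen. The rises were both beside genes where H3K27ac fell: a peak in atf-7, 2675 bp beyond cpg-1, rose 1.69-fold (1.57 to 1.82), and a peak assigned to rad-26, 2307 bp beyond oma-1, rose 1.58-fold (1.5 to 1.66). H3K18ac rose 1.82-fold (1.68 to 1.98) at the atf-7 site. The lowest of the 9 were short of 1.5-fold but below 1 beyond counting error: a peak on the meiosis gene syp-4 near glh-1 had a fold of 0.688 (0.576 to 0.820), one on T23G11.1 near gld-1 had 0.7 (0.602 to 0.812), and one on rec-8, a meiotic cohesin gene near mex-5, had 0.717 (0.573 to 0.895).

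Other genes of the same processes were counted with 1 peak per gene, the stronger one by mean CPM, which over all genes gave 21.9% lower and 8.72% higher for H3K27ac, and 13.1% lower and 8.04% higher for H3K18ac. Eggshell and oocyte surface genes had the largest share of lower H3K27ac among the 4 wider germline lists: of 15 measured among 16 listed, 7 fell (46.7%) and 2 rose, with a median log2 ratio of -0.42 against -0.17 over all genes. The caveolin gene cav-1 fell from 167 to 47.7 CPM, a fold of 0.285 (0.259 to 0.314), egg-1, encoding an oocyte surface receptor needed for fertilisation, had 0.514 (0.465 to 0.568), and cbd-1, encoding a chitin-binding eggshell protein, had 0.546 (0.490 to 0.608). The 2 that rose were cpg-7, at 1.63 (1.47 to 1.8), and mbk-2, at 1.79 (1.3 to 2.47), at peaks 3189 and 1187 bp upstream. For H3K18ac 3 of 12 fell and 0 rose, with a median of -0.22, and cav-1 had a fold of 0.506 (0.444 to 0.576), egg-4 0.651 (0.595 to 0.712) and perm-4 0.673 (0.585 to 0.774).

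Of the oocyte and maternal RNA regulators outside the set, 24 were listed and 20 measured for H3K27ac; 4 fell and 1 rose, a share near the background, and their median was -0.39 (log2). Those that fell included mex-6, the closest relative of mex-5, with a fold of 0.452 (0.387 to 0.526), the zinc-finger gene pos-1 with 0.528 (0.458 to 0.608) and the KH-domain gene mex-3 with 0.619 (0.586 to 0.653). For H3K18ac 14 were measured, 1 fell (puf-7, with 0.610) and 1 rose, around a median of 0.11: the ataxin-2 gene atx-2 rose 1.69-fold (1.58 to 1.81), rnp-8 had a fold of 1.38 (1.28 to 1.5) and mex-3 had 0.740 (0.685 to 0.799). Of 21 other germ granule genes 10 were measured for H3K27ac, where 2 fell and 0 rose. The share that fell, 20%, is near the 21.9% over all genes. Of these 10 genes 9 had a fold below 1 (median -0.48), beside 64% of all H3K27ac peaks. The genes that fell were meg-3, at 0.471 (0.396 to 0.559), and the Piwi gene prg-1, with a fold of 0.589 (0.518 to 0.670), and glh-4 and pgl-3, relatives of glh-1 and pgl-1, had 0.668 (0.593 to 0.753) and 0.692 (0.622 to 0.770). For H3K18ac 9 were measured, of which 1 fell and 1 rose (median -0.22). There glh-4 had a fold of 1.35 (1.27 to 1.44) at a peak 2794 bp upstream, and the Argonaute genes hrde-1 and csr-1 had 0.740 (0.644 to 0.851) and 0.937 (0.822 to 1.07).

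Of 21 meiosis genes 13 were measured for H3K27ac, where 3 fell and 2 rose, around a median of -0.27, which is close to all genes. The crossover gene cosa-1 rose 1.96-fold (1.71 to 2.24), syp-4, of the synaptonemal complex, fell to 0.557 (0.488 to 0.635), and him-3, whose peak also overlaps pgl-1, had 0.686. For H3K18ac 6 were measured, with a median of 0.01 and 0 past 1.5-fold, and with cosa-1 at 1.25, rad-51 at 0.843 and spo-11 at 1.17. These wider lists and the marker lists below were chosen with earlier results of the same libraries known.

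Markers of other cell types moved as well. Over all nuclear peaks, 52.1% had a fold below 1 for H3K18ac and 64% for H3K27ac. Sperm markers had a fold below 1 at 5 of 5 measured genes in each mark, of 11 listed, with medians of -0.57 for H3K18ac and -0.50 for H3K27ac, and their summed level went from 356 to 255 CPM and from 266 to 199 CPM. Hypodermis markers had medians of -0.51 in both marks, with 6 of 6 below 1 in each, and sums from 569 to 443 CPM and from 482 to 355 CPM. Body wall muscle markers were below 1 at 7 of 7 genes in each mark, with medians of -0.27 and -0.30 and sums from 1028 to 829 CPM and from 730 to 610 CPM. No peak was assigned to the muscle myosin gene myo-3 or to the hypodermal factor gene elt-3. Intestine markers, with 9 listed, had medians of 0.37 and 0.31, with 4 of 4 and 5 of 6 measured genes above 1. No peak was assigned to ges-1, pept-1 or vit-6, and for H3K18ac none to elt-2 or elt-7. The sums of the measured intestine markers went from 280 to 346 CPM and from 262 to 408 CPM. For H3K27ac act-5 alone went from 89.5 to 196 CPM, and mtl-2 had a fold of 1 (0.797 to 1.26). Of the somatic gonad markers 3 and 2 of 7 were measured, with medians of -0.33 and -0.66 and sums from 271 to 243 CPM and from 178 to 108 CPM. The part of tissue make-up or developmental stage in the values of the germ granule and oocyte genes was not tested.

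**Figure D4:**
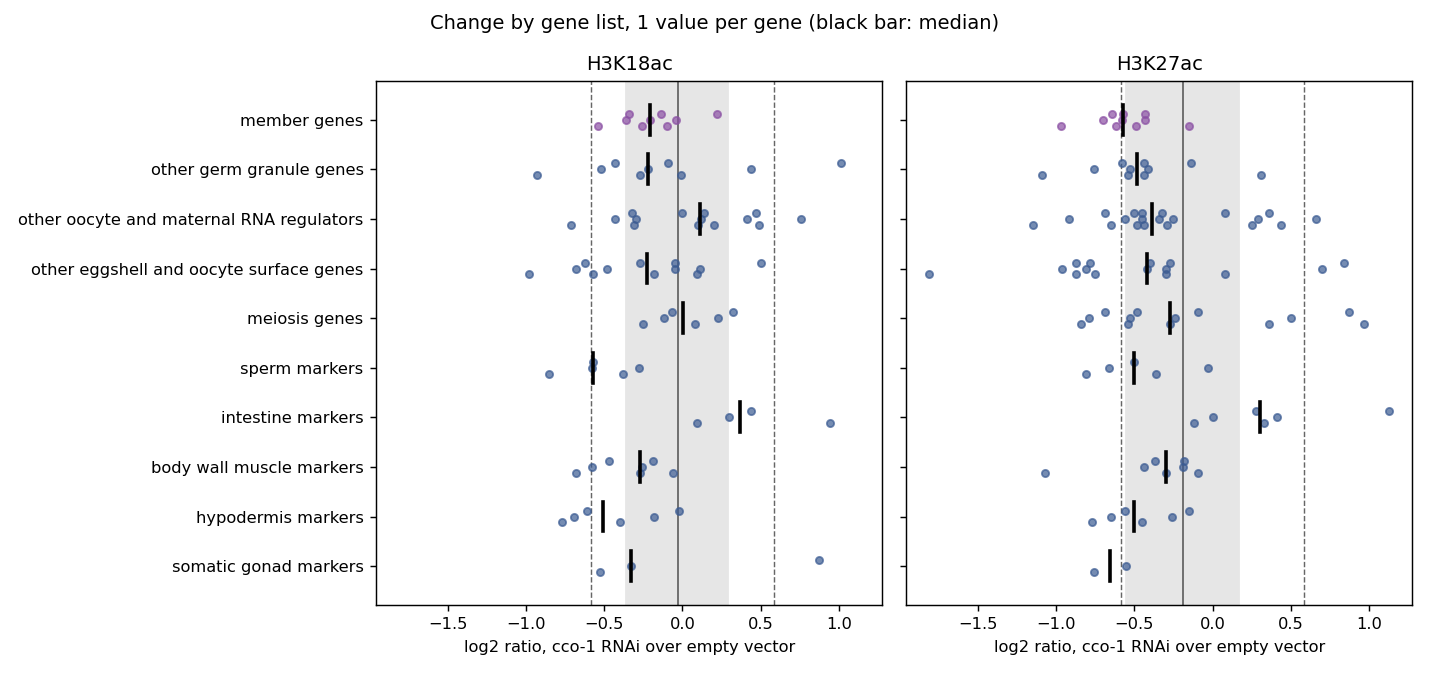
Log2 ratio between cco-1 RNAi and empty vector per gene for the 10 genes (purple, counts summed over the gene), for the wider germline lists and for markers of other cell types (blue, the stronger peak per gene), H3K18ac left and H3K27ac right; black bars are medians, the grey line and band the median and middle 50% of all peaks, dashed lines 1.5-fold. For H3K27ac the medians of the 10 genes (-0.57), other germ granule (-0.48), oocyte regulator (-0.39) and eggshell genes (-0.42) lie left of the median of all peaks. So do those of meiosis genes (-0.27) and of sperm (-0.50), hypodermis (-0.51), body wall muscle (-0.30) and somatic gonad markers (-0.66). Only the median of intestine markers (0.31) lies right of it.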

How the data were processed

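The deposited data are 1 table per mark, in which each line is a peak with its nearest gene and, per the file headers, 1 column of values for either feeding condition. These deposited values are whole numbers and were taken as raw read counts. Tools named in the submitters' processing notes, with no role stated, are MACS2 2.1.2, SAMtools 1.4.1, Bowtie2 2.3.5 and FastQC, and the builds named are ce11 and WBcel235. No source used here gives the counting program, the peak settings or the handling of reads shared by related genes (oma-1 and oma-2, glh-1 and glh-2, the puf genes).

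Of 17331 and 17877 lines, a peak listed under several genes was counted once in totals, and 5 and 3 mitochondrial lines were left out. Counts were scaled to the total in nuclear peaks, with no pseudocount and no filter. Fold intervals are exact Clopper-Pearson, level intervals exact Poisson, and ratios of folds exact conditional odds ratios, at 95%. With 1 library per group no test was made. Gene positions come from a RefSeq table of WBcel235 without exons or strand, so strand came from the deposited tables, which give none for pgl-1. Code ran in Python 3.11.15 with scipy 1.17.1 and pandas 2.3.3, and TMM factors in edgeR 4.0.16. Ratios and intervals were tested on simulated Poisson counts. These hold no variation between worm cultures or libraries, so the test covers the calculation only. The members and gene lists were chosen with earlier results of these data known. Of each wider list, the 3 genes with the largest absolute log2 ratio among peaks of at least median strength were named. The genes meg-3, puf-7, cpg-7, mbk-2 and mtl-2 were added after their values were seen.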

Additional observations from a re-analysis of the deposited data

How the results depend on the processing

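H3K27ac falls among the 11 peaks counted by symbol numbered 6 as reported, 5 or 6 under other scalings, the strength class and the pseudocount, not always the same peaks, and 1 (the upstream glh-1 peak) with a 2-fold limit. Other choices of peaks gave 4 of 9 (at least median strength), 5 of 8 (strongest or nearest peak), 6 of 9 (within 1 kb), 6 of 10 (without the peak in atf-7) and 7 of 15 (by position), and summed counts gave 4 of 10 genes. H3K27ac rises went from 0 to 1 (the peak in atf-7) with median scaling, TMM scaling and centring on strength class. The median H3K27ac log2 ratio of -0.62 became -0.43 with median scaling, -0.44 with TMM scaling and -0.86 for peaks within 1 kb of the gene start. For germ granule genes -0.72 became -0.52 (median scaling), -0.54 (TMM scaling, strength class, peaks by position), -0.51 (pseudocount of 7.01 CPM) and -0.43 (peaks of at least median strength, the strongest or nearest peak per gene, counts summed over the gene). For oocyte genes -0.62 became -0.43 (median scaling), -0.44 (TMM scaling) and -0.86 (the strongest peak, the nearest peak, peaks within 1 kb). The single H3K18ac fall, at glh-2, went to 0 with a 2-fold limit, median, TMM and no scaling, the strength class, the pseudocount (7.60 CPM), the nearest peak and summed counts. The single H3K18ac rise went to 0 with a 2-fold limit and wherever the peak in atf-7 was not counted. The H3K18ac medians moved by less than the median half-width of the single-peak fold intervals on the log2 scale. No value past 1.5-fold changed sign, and of 55 alternative values of single peaks per mark, 0 moved beyond counting error for H3K18ac and 19 for H3K27ac. Leaving out the peak in atf-7 and summing counts were chosen after seeing the data. No promoter motif search was run, since no sequences were used here. Depth limits the weakest H3K18ac peaks, such as that of oma-1 (fold interval 0.715 to 1.32) and the first of cpg-1 (0.662 to 1.38). No paired analysis was possible because each group has 1 library.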
